A study of Mus musculus with 16 samples.

Results

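Described here are 10 of the 17721 genes in the count table of pubertal mouse mammary fragments: Acta2, Actg2, Myh11, Mylk, Myl9, Cnn1, Tagln, Tpm1 and Tpm2, which build or regulate the contractile apparatus of smooth muscle, and Oxtr, the oxytocin receptor. They were chosen by name as contraction genes of myoepithelial cells, and all 10 were present in the table. Myoepithelial cells form the basal layer of the mammary epithelium and contract like smooth muscle. Oxytocin binds its receptor on these cells and releases calcium inside them, calmodulin then activates myosin light chain kinase, and the phosphorylated myosin pulls on actin filaments to eject milk. In puberty the gland grows from terminal end buds (TEBs), whose outer layer of cap cells gives rise to the basal cells of the duct left behind, while the nipple lies at the other end of the ductal tree.

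The study dissected single fragments of mammary gland, 4 nipples, 6 ducts and 6 TEBs, and sorted single cells into wells for 3' SMART-seq with unique molecular identifiers (UMIs). The mice were labelled C57BL/6 at all 3 locations. The study describes all sequenced samples as coming from mice 5 weeks old and K14-Cre/R26-mTmG, a reporter in which the keratin 14 promoter drives Cre. Its methods for dissecting fragments, which do not name the sequencing, give 5 to 6 weeks and either that reporter or wild type. The labels give no treatment. The labels do not say which mouse each fragment came from, so the p-values measure the spread between fragments, some of which may share a mouse.

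The fragments held 83 to 93 of the 1419 deposited cells and 1856141 to 5233122 UMIs each, spike-ins included. Of the 1419 cells, 1317 were kept. Clustering without the 10 genes gave 292 basal-like cells, 425 ER+ luminal-like, 178 ER- luminal-like, 252 fibroblast-like, 78 myeloid-like and 18 mural-like cells, the last being smooth muscle cells and pericytes of vessels, while 68 cells of a cluster led by mast cell and endothelial genes were left unnamed and 6 cells rich in Schwann cell genes were set aside. The basal-like class joined 2 clusters, one of 96 nipple, 115 duct and 1 TEB cell whose leading genes held the basal keratins Krt5, Krt14, Krt15 and Krt17 beside Cnn1, Actg2 and Myh11, and one of 81 TEB cells and 1 nipple cell whose leading genes held Gpx2, Sostdc1 and Fabp5 and none of these, before 1 nipple and 1 TEB cell of them were set aside. The summed level of 8 basal markers was 2867 to 5179 CPM (a gene's UMIs as a share of all gene UMIs of the sum, times 1e6) in TEB basal-like sums, against 11451 to 14851 CPM in duct and 12498 to 14627 CPM in nipple. All 95 well barcodes among the kept cells occurred in more than 1 fragment, as plates share 1 barcode set.

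Per fragment, the UMIs of 6 to 32 basal-like cells were summed, giving 302554 to 1210320 UMIs. In these sums the mean level of the contractile genes was highest in duct, lower in nipple and lowest in TEB, with 2 exceptions: Actg2 was about as low in nipple as in TEB, and Oxtr was about as high in nipple as in duct. All 10 genes rose from TEB to duct, 8 were higher in nipple than in TEB, and 5 were lower in nipple than in duct. The tests were edgeR's quasi-likelihood tests, adjusted over 7238 genes. Oxtr is among the genes called against TEB but passed the filter on low counts through duct and nipple. Its calls against TEB are thus a description only. Beside the 10 of 10 called between duct and TEB, 10.7% of all genes tested were called in either direction and 6.73% were higher in duct. Beside the 8 of 10 between nipple and TEB, 19.6% were called in either direction and 9.53% were higher in nipple, and beside the 5 of 10 between nipple and duct, 6.52% were called in either direction and 4.06% were higher in duct. The median log2 difference of the 10 genes was 2.93 for duct minus TEB, 1.37 for nipple minus TEB and -0.88 for nipple minus duct, against -0.04, -0.04 and -0.03 over all genes tested.

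**Figure D1:**
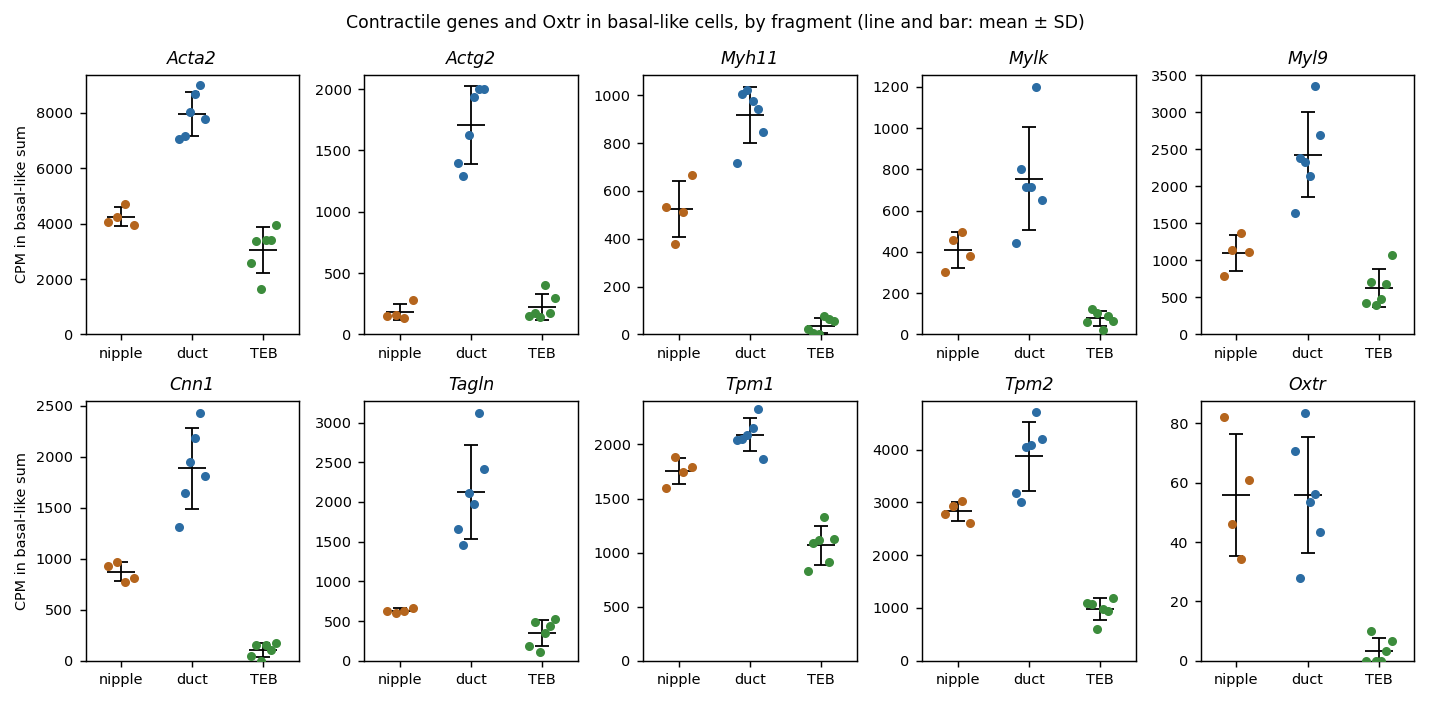
Level of each of the 10 genes in basal-like sums, in CPM on an axis that starts at 0, with 1 point per fragment (4 nipple, 6 duct, 6 TEB) and a line and bar for mean ± SD. Actg2 sits at 1289 to 2001 CPM in duct and at or below 403 CPM elsewhere, while Oxtr is at or below 9.92 CPM in TEB and at or above 27.8 CPM elsewhere.

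Together the 10 genes took 19497 to 29166 CPM of the duct sums (mean 23779 ± 3395, SD, n = 6), 11848 to 13438 CPM of the nipple sums (12609 ± 682, n = 4) and 4114 to 8465 CPM of the TEB sums (6529 ± 1540, n = 6). The 3 locations did not overlap in this summed level.

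Acta2 encodes smooth muscle alpha-actin of the thin filament (ENSMUSG00000035783, GRCm38 chromosome 19, 34241090 to 34255590, minus strand). In the nipple its level was 4062, 4254, 4716 and 3948 CPM. Duct sums ranged from 7037 to 9008 CPM with a median of 7901, and TEB sums from 1632 to 3941 CPM with a median of 3385. No location overlapped another, and Acta2 remained a high-level transcript at all 3. The log2 difference was 1.54 ± 0.16 (SE) for duct minus TEB (adjusted p = 1.96e-06), 0.66 ± 0.18 for nipple minus TEB (adjusted p = 0.0131) and -0.88 ± 0.18 for nipple minus duct (adjusted p = 0.00554). The nipple to TEB difference did not hold in every setting: it was 0.45 with cells thinned to 5000 UMIs (adjusted p = 0.0608) and -0.08 without basal-like cells holding 10 or more UMIs of Krt18, a luminal keratin, a setting that kept 4 nipple, 2 duct and 4 TEB fragments.

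Actg2 encodes smooth muscle gamma-actin, the form typical of gut and other visceral muscle (ENSMUSG00000059430, chromosome 6, 83512905 to 83536265, minus strand). The study named it as a duct signature gene from these same samples, so its duct level is not independent evidence. Separately, the study reports real-time PCR of its signature genes in TEB, duct and nipple basal cells, with patterns it describes as like those of its sequencing. Its nipple level was 152, 163, 135 and 283 CPM. Duct sums ranged from 1289 to 2001 CPM with a median of 1778, and TEB sums from 146 to 403 CPM with a median of 177. Nipple and TEB overlapped, and both lay far below every duct fragment. Duct exceeded TEB by 3.10 ± 0.26 on the log2 scale (adjusted p = 1.44e-08) and nipple fell below duct with a difference of -3.20 ± 0.30 (adjusted p = 4.20e-07). For nipple minus TEB the log2 difference was -0.10 ± 0.28 (adjusted p = 0.847).

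The ratio of the 2 actins was chosen for comparison with these levels, and the study's choice of Actg2, known, so its tests restate that pattern and are not independent evidence. The log2 ratio of Actg2 to Acta2 CPM averaged -2.23 ± 0.18 (SD, n = 6) in duct, -3.81 ± 0.47 (n = 6) in TEB and -4.59 ± 0.56 (n = 4) in nipple. It was higher in duct than in TEB by 1.58 (2-sided exact permutation test over fragments, p = 0.00216, adjusted over 3 pairs 0.00649), and the nipple ratio differed from the duct ratio by -2.35 (exact permutation p = 0.00952, adjusted 0.0143). For nipple minus TEB the difference was -0.77 (exact permutation p = 0.0476, adjusted 0.0476), which was past the threshold by little: it missed it with cells thinned to 5000 UMIs (-0.87, adjusted exact permutation p = 0.0857) and when N21, N22, N23, T31, T33, T34 or T43 was left out (adjusted exact permutation p between 0.0635 and 0.119, with the difference at -0.59 without N23). The longest reading frames of the 2 actins, 1134 bases for Acta2 and 1131 for Actg2, shared 84.3% of their bases, while the last 300 bases of the transcripts, near which 3' reads fall, shared 54.3%.

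**Figure D2:**
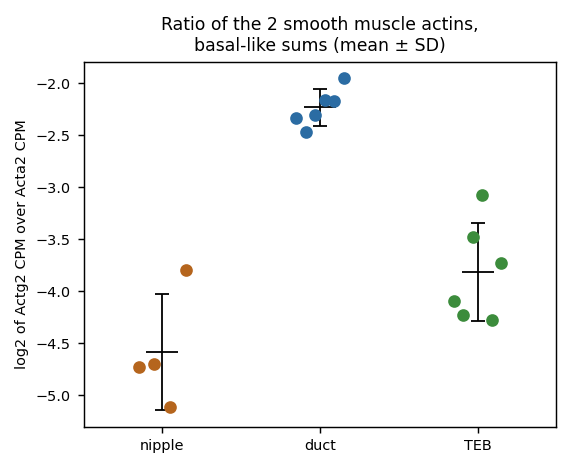
Log2 of the Actg2 CPM over the Acta2 CPM in each basal-like sum, with 1 point per fragment and a line and bar for mean ± SD. The 6 duct fragments lie above all TEB and nipple fragments, and 3 of the 4 nipple fragments lie below all 6 TEB fragments, with means of -4.59 and -3.81.

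Myh11 encodes the smooth muscle myosin heavy chain, the motor of the thick filament (ENSMUSG00000018830, chromosome 16, 14194535 to 14291372, minus strand). Nipple sums held 534, 379, 513 and 666 CPM. Duct sums ranged from 717 to 1023 CPM with a median of 960.1, and TEB sums from 0 to 76.0 CPM with a median of 38.7. The locations did not overlap, and in TEB fragment T33 no UMI was seen among 391637, which allows up to 7.66 CPM. Myh11 had the largest duct to TEB difference of the 10 genes, 4.67 ± 0.49 on the log2 scale (adjusted p = 9.08e-06), and nipple exceeded TEB by 3.87 ± 0.50 (adjusted p = 5.51e-05). For nipple minus duct it was -0.79 ± 0.46 (adjusted p = 0.406).

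Myl9 encodes the regulatory light chain whose phosphorylation starts contraction (ENSMUSG00000067818, chromosome 2, 156775420 to 156781658, plus strand). Nipple sums held 784, 1146, 1373 and 1109 CPM, duct sums 1646 to 3359 CPM (median 2358) and TEB sums 401 to 1079 CPM (median 579). Every duct fragment exceeded every nipple fragment, while the highest TEB fragment lay within the nipple range. Myl9 was higher in duct than in TEB by 2.11 ± 0.26 (log2, adjusted p = 2.62e-05), higher in nipple than in TEB by 0.99 ± 0.27 (adjusted p = 0.0182), and the nipple minus duct difference was -1.12 ± 0.29 (adjusted p = 0.0267). Without N21, N22 or N24 the last missed the threshold (adjusted p = 0.0851, 0.0703 and 0.0805), as it did with no filter on low counts (0.0590), and without N23 the nipple to TEB difference did (0.0628).

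Mylk encodes myosin light chain kinase, which phosphorylates that light chain (ENSMUSG00000022836, chromosome 16, 34745210 to 35002420, plus strand). It overlaps 3 antisense genes, and whether counting used strand is not given in the sources used here. Nipple sums held 304, 460.2, 497 and 380 CPM, duct sums 444 to 1201 CPM (median 713) and TEB sums 23.1 to 126 CPM (median 79.7). TEB stood apart from the other 2 locations, which overlapped each other in the lowest duct fragment. The log2 difference was 3.43 ± 0.26 for duct minus TEB (adjusted p = 2.21e-11) and 2.56 ± 0.27 for nipple minus TEB (adjusted p = 2.14e-08). For nipple minus duct it was -0.87 ± 0.27 (adjusted p = 0.0427), and the adjusted p rose to between 0.0507 and 0.148 when D32, D51, D52, D61, D62, T43 or any 1 of the 4 nipple fragments was left out.

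Cnn1 encodes calponin 1, an actin-binding protein of differentiated smooth muscle that restrains the myosin motor (ENSMUSG00000001349, chromosome 9, 22099216 to 22109630, plus strand). Nipple sums held 932, 967, 770.0 and 817 CPM, duct sums 1308 to 2429 CPM (median 1881) and TEB sums 0 to 177 CPM (median 127). As for Myh11, the locations did not overlap and T33 held no UMI. Duct exceeded TEB by 4.32 ± 0.52 (log2, adjusted p = 4.88e-05) and nipple exceeded TEB by 3.22 ± 0.53 (adjusted p = 0.000608). The nipple minus duct difference of -1.10 ± 0.51 did not pass the threshold (adjusted p = 0.275) although the fragments did not overlap. It did pass with T33 left out (adjusted p = 0.00748).

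Tagln encodes transgelin (SM22), an actin-bundling protein of smooth muscle (ENSMUSG00000032085, chromosome 9, 45929619 to 45936058, minus strand), and overlaps Pcsk7 and Gm48529 on the other strand. Nipple sums held 626, 601, 630.2 and 668 CPM, duct sums 1455 to 3124 CPM (median 2047) and TEB sums 115 to 529 CPM (median 394). The 4 nipple fragments lay close together, between the ranges of the other 2 locations. Duct exceeded TEB by 2.75 ± 0.33 (log2, adjusted p = 4.19e-05) and the nipple minus duct difference was -1.74 ± 0.37 (adjusted p = 0.0106). For nipple minus TEB it was 1.02 ± 0.35 (adjusted p = 0.0560), and it passed without D61, T33 or T43 (adjusted p = 0.0425, 0.0163 and 0.0302).

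Tpm1 and Tpm2 encode alpha- and beta-tropomyosin, which lie along the actin filament in muscle and, as other isoforms, in non-muscle cells. Tpm1 (ENSMUSG00000032366, chromosome 9, 67022590 to 67049406, minus strand) was at 1593, 1881, 1746 and 1788 CPM in nipple, 1863 to 2328 CPM (median 2070) in duct and 833 to 1331 CPM (median 1099) in TEB. It changed least of the 10 genes between duct and TEB, by 1.14 ± 0.11 on the log2 scale (adjusted p = 1.37e-09), and nipple exceeded TEB by 0.91 ± 0.12 (adjusted p = 7.41e-07). Nipple and duct overlapped, with a difference of -0.23 ± 0.12 (adjusted p = 0.329).

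Tpm2 (ENSMUSG00000028464, chromosome 4, 43514711 to 43523765, minus strand) was at 2777, 2930.2, 3023 and 2604 CPM in nipple, 3008 to 4719 CPM (median 4064) in duct and 603 to 1187 CPM (median 1023) in TEB. Its TEB range lay far below the other 2, and its differences of 2.15 ± 0.13 for duct minus TEB (adjusted p = 1.74e-14) and 1.72 ± 0.14 for nipple minus TEB (adjusted p = 2.09e-11) had small errors. For nipple minus duct it was -0.43 ± 0.14 (adjusted p = 0.0659), and it passed without D31, D32 or T33 (adjusted p = 0.0367, 0.0357 and 0.0229).

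Oxtr encodes the receptor through which oxytocin triggers contraction (ENSMUSG00000049112, chromosome 6, 112473683 to 112489943, minus strand). Its nipple level was 82.0, 46.0, 34.4 and 60.9 CPM. Duct sums ranged from 27.8 to 83.4 CPM with a median of 54.9, and TEB sums from 0 to 9.92 CPM with a median of 1.65. Nipple and duct fragments overlapped, and every TEB fragment lay below them. The UMIs behind these levels numbered 120 in 23 of 96 nipple cells, 166 in 43 of 115 duct cells and 14 in 5 of 81 TEB cells, the TEB cells being the deepest (median 44004 UMIs, against 21128 in nipple and 23039 in duct). In T31, T33 and T34 no Oxtr UMI was seen, which allows up to 6.42, 7.66 and 9.91 CPM, limits that cover counting error only. Oxtr was higher in duct than in TEB by 4.05 ± 0.63 (log2, adjusted p = 1.14e-05) and in nipple than in TEB by 4.07 ± 0.66 (adjusted p = 1.53e-05), and the nipple minus duct difference was 0.02 ± 0.56 (adjusted p = 0.99). Oxtr passed the filter on low counts through nipple and duct, so its 2 calls against TEB are a description only. Without the cells with 10 or more Krt18 UMIs, which left 2 duct fragments, the nipple minus duct difference of Oxtr was -1.59.

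**Figure D3:**
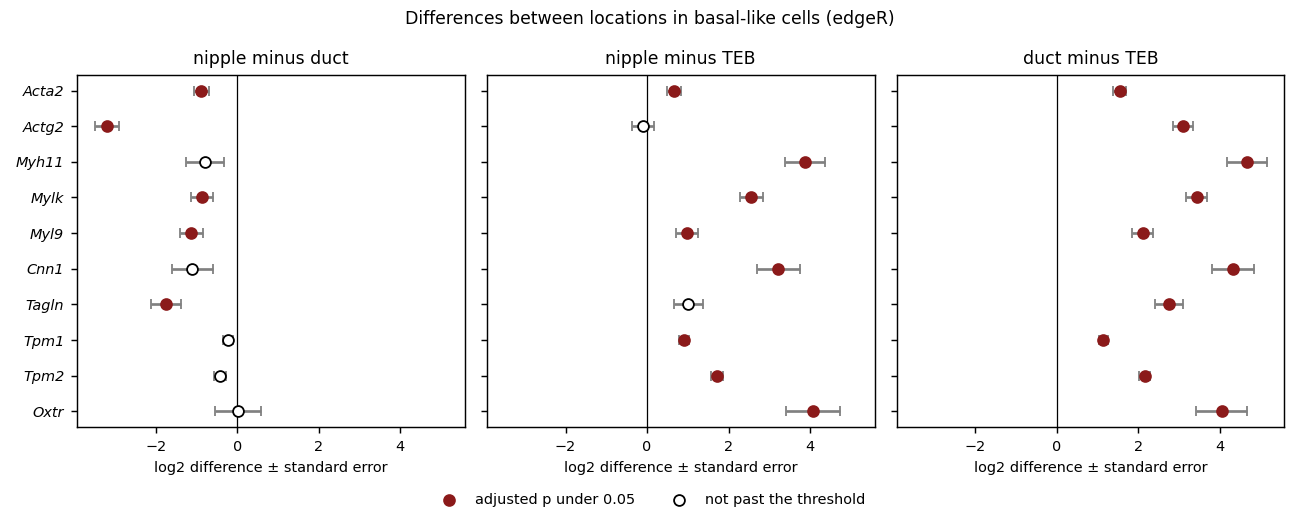
Log2 difference ± standard error of each gene between pairs of locations in basal-like sums, filled where the adjusted p of edgeR's test was under 0.05 and open where it was not. All 10 points lie right of 0 for duct minus TEB, Actg2 (-0.10) is the only point left of 0 for nipple minus TEB, and Oxtr (0.02) is the only point not left of 0 for nipple minus duct.

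Other measures moved with location in the same sums. Besides the basal markers given above, the summed level of 7 fibroblast markers was 938 to 1875 CPM in nipple basal-like sums against 263 to 456 CPM in duct and 231 to 489 CPM in TEB, and the summed level of 5 suprabasal keratinocyte markers was 20.6 to 80.6 CPM in nipple, 22.1 to 90.1 CPM in duct and 92.5 to 146 CPM in TEB, with Krt1 at 0 in TEB and nipple and Lor at 0 in nipple. Their part in the differences was not tested. Of the mural markers, Des was at 628 CPM in mural-like and 0.343 CPM in basal-like cells, Ndufa4l2 at 651 and 0 CPM, and Rgs5 at 924 and 1.94 CPM. At least 3 UMIs of Rgs5, Notch3, Kcnj8, Abcc9, Higd1b and Ndufa4l2 together were seen in 0 of 115 duct, 2 of 96 nipple and 1 of 81 TEB basal-like cells. The mural markers Des and Cspg4 were left out of this count.

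Over single cells, Cnn1 and Myh11 were seen in most duct cells, in fewer nipple cells and in a minority of TEB cells, while Acta2, Tpm1 and Tpm2 were seen in nearly all. With each cell thinned to 5000 UMIs, Cnn1 was seen in 99.1% of duct, 70.8% of nipple and 25.9% of TEB basal-like cells (unthinned 99.1%, 79.2% and 44.4%). Myh11 was seen in 93.9%, 62.5% and 22.2% (unthinned 98.3%, 77.1% and 33.3%). In myeloid-like cells, which should lack these genes, the thinned shares were 3.85% for Cnn1 and 1.28% for Myh11 at a median depth of 18966 UMIs. Acta2 by contrast was seen in 100% of duct, 90.6% of nipple and 97.5% of TEB cells, beside 35.9% of myeloid-like cells. Actg2 was seen in 93.9% of duct, 27.1% of nipple and 37.0% of TEB cells (unthinned 95.7%, 35.4% and 63.0%), beside 3.85% of myeloid-like cells. Oxtr was seen in 14.8% of duct, 18.8% of nipple and 2.47% of TEB cells (unthinned 43 of 115, 23 of 96 and 5 of 81 cells), beside 1.28% of myeloid-like cells both thinned and unthinned. Duct and nipple changed order for Oxtr with thinning, so no order between them is read from these shares.

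**Figure D4:**
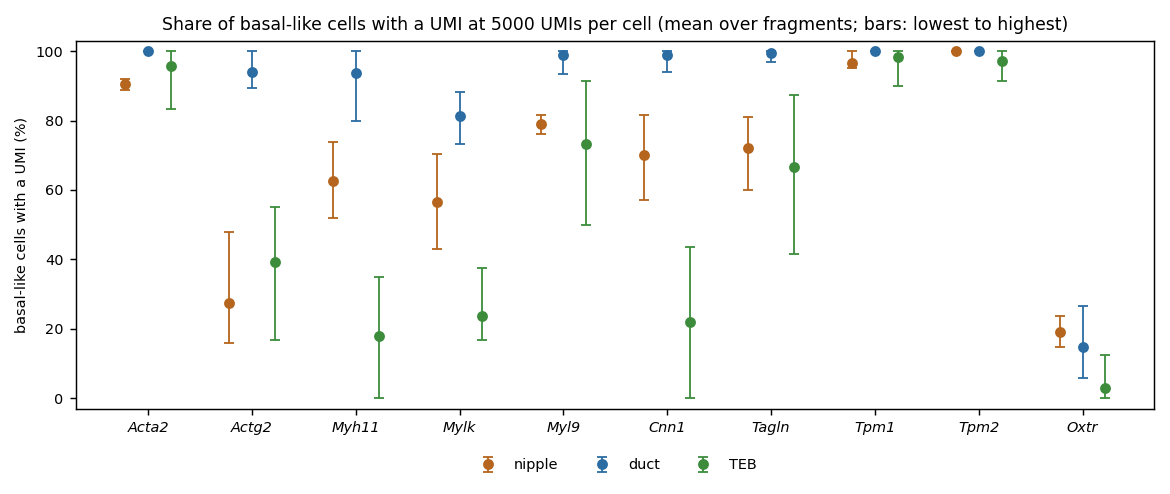
Share of basal-like cells with at least 1 UMI of each gene after every cell was thinned to 5000 UMIs, as the mean over fragments with bars from the lowest to the highest fragment. Acta2, Tpm1 and Tpm2 have means of 90.7% or more at all locations, while Cnn1 and Myh11 fall to means of 21.8% and 17.8% in TEB.

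At this equal depth duct cells carried UMIs of a median of 9 of the 10 genes (lowest cell 6), nipple cells of 7 (lowest 2) and TEB cells of 6 (lowest 2). Cells with no UMI of Cnn1 or Myh11 among these 5000 were 0 of 115 in duct, which allows a share of up to 2.61% by counting error only, over cells that share 6 fragments. Such cells were 17 of 96 in nipple, at 11.1% to 28.6% of the cells of a fragment, and 46 of 81 in TEB, at 34.8% to 100%. At full depth the 17 nipple cells did hold 9 UMIs of Cnn1 and 12 of Myh11, and the 46 TEB cells 24 and 14. The 17 nipple cells held Krt14 at 6030.3 CPM, near the 5948 CPM of the other nipple cells, and Krt5 at 1074 against 1517 CPM, but Acta2 at 1024 against 4878 CPM, Tagln at 118 against 735 CPM, and Tpm2 at 1318 against 3137 CPM. The 46 TEB cells held Acta2 at 2665 against 4019 CPM, Krt14 at 406 against 864 CPM and Krt17 at 1593 against 1865 CPM. Their Krt5 (444 against 409 CPM), Trp63 (84.1 against 63.4) and Col17a1 (225 against 176) were not lower. Since both sets were chosen by 2 of the genes, these values are a description only.

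**Figure D5:**
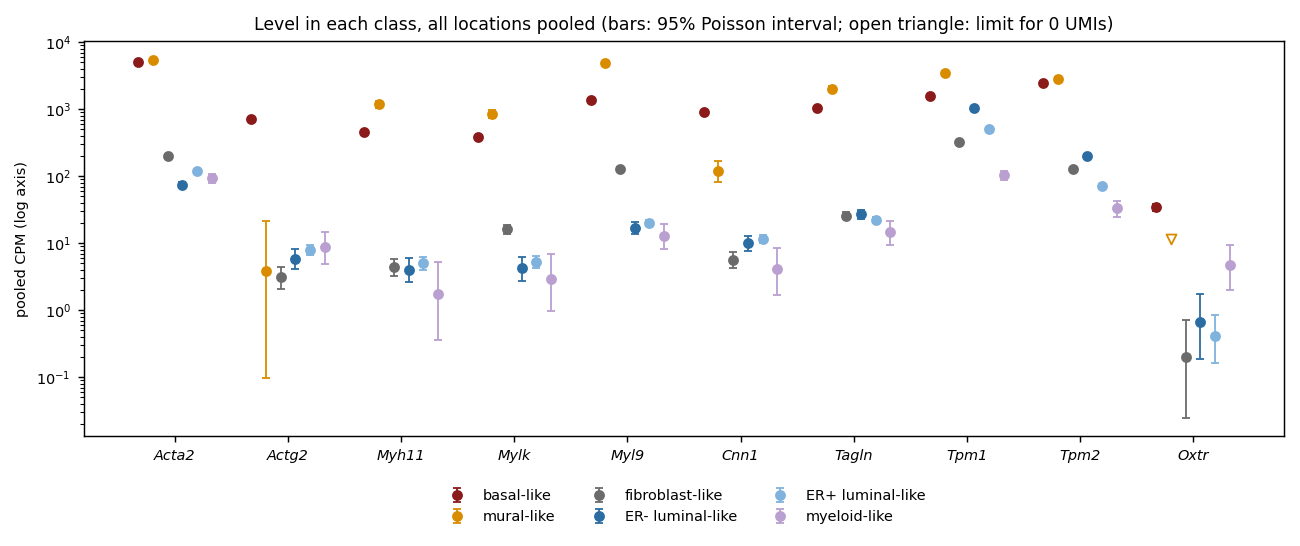
Pooled level of each gene in 6 classes over all locations, in CPM on a log axis, with 95% Poisson intervals that cover counting error only and an open triangle at the limit of 3 UMIs where none was seen. Basal-like and mural-like cells stand apart for most genes, Actg2 and Oxtr are highest in basal-like cells among these classes, and Tpm1 is high in ER- luminal-like cells as well.

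Across classes, levels of the 10 genes were highest in basal-like or mural-like cells, a description with no test. Pooled over locations, basal-like cells held Acta2 at 5061 CPM and mural-like cells at 5393 CPM. The mural-like level was also the higher one for Myl9 (4859 against 1397 CPM), Myh11 (1185 against 455), Mylk (862 against 389), Tagln (2024 against 1044), Tpm1 (3486 against 1558) and Tpm2 (2862 against 2426). The basal-like level was the higher one for Cnn1 (898 against 121 CPM), Actg2 (710.3 CPM against 3.90 CPM, 1 UMI) and Oxtr (34.3 CPM against no UMI in 18 cells, which allows up to 11.7 CPM). The mural-like values rest on 18 cells, 10 from nipple, 6 duct and 2 TEB.

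In luminal-like cells, 7 of the 10 genes lay at 0.830% to 2.61% of their pooled basal-like CPM (Acta2, Actg2, Myh11, Mylk, Myl9, Cnn1 and Tagln), a level that myeloid-like cells, at 0.388% to 1.84%, came near. Oxtr had 7 UMIs in 7 of 425 ER+ cells and 4 UMIs in 1 of 178 ER- cells, and 8 UMIs in 1 of 78 myeloid-like cells. The tropomyosins were the exception: Tpm1 was at 1035 CPM in ER- cells and 499 CPM in ER+ cells, against 1558 CPM in basal-like cells and 6.61% of that level in myeloid-like cells, and Tpm2 was at 8.36% of the basal-like level in ER- and 2.96% in ER+ cells, against 1.36% in myeloid-like cells.

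The low levels in ER+ sums still differed between locations. Of 7 genes tested, 3 were higher in duct than in TEB (1.61% of all genes tested were called, 1.04% higher in duct): Cnn1 by 4.48 ± 0.80 on the log2 scale (adjusted p = 0.00168), Myl9 by 2.85 ± 0.59 (0.00690) and Tagln by 2.41 ± 0.63 (0.0391). Cnn1 there was at 8.23 to 53.7 CPM in duct and 0 to 2.91 CPM in TEB. The 3 genes passed the filter on low counts mainly through duct, with 179 UMIs of Cnn1, 267 of Myl9 and 301 of Tagln there. In TEB they had 9, 48 and 64 UMIs. As the filter thus favoured genes high in duct, the 3 of 7 is a description only. As a share of the pooled basal-like CPM at the same location, ER+ Cnn1 was 1.25% in duct and 1.04% in TEB. Myl9 was 1.44% and 0.875%, and Tagln 1.85% and 2.11%. In myeloid-like cells Cnn1 was at 10.1 CPM in duct and 1.97 CPM in TEB (4 and 2 UMIs). Myl9 was there at 15.2 and 11.8 CPM, and Tagln at 25.3 and 12.8 CPM. Whether the differences were particular to ER+ cells was not tested. The basal marker sum in the same ER+ sums was 186 to 858 CPM in duct, 150.4 to 254 CPM in TEB and 274 to 898 CPM in nipple, and its part was not tested. Actg2 fell from duct to nipple with a difference of -4.89 ± 1.31 (adjusted p = 0.0419, 1.96% called), resting on 1 nipple UMI, with 1.11% of all genes higher in duct. This call was lost without D51, D52, N21, N22 or N23 (adjusted p between 0.0736 and 0.0992), and without D31 or D32 Actg2 no longer passed the filter on low counts. Actg2 too passed it through duct, with 119 UMIs there and 16 in TEB.

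Tpm1 went the other way in ER+ cells. It was 236 to 488 CPM in nipple, 323 to 547 CPM in duct and 483 to 915 CPM in TEB, ranges that overlapped, and nipple was lower than TEB with a log2 difference of -0.82 ± 0.18 (adjusted p = 0.00534, 5.52% called and 2.95% higher in TEB). The ER- sums covered 4 nipple, 6 duct and 4 TEB fragments, as T31 and T43 held under 5 ER- cells. In ER- cells Tpm1 was instead higher in nipple (1068 to 1670 CPM) than in TEB (756 to 903 CPM), by 0.76 ± 0.19 (adjusted p = 0.0156), and Tpm2 was higher in nipple (186 to 345 CPM) and in duct (179 to 321 CPM) than in TEB (74.3 to 175 CPM), by 1.46 ± 0.33 (adjusted p = 0.00734, 4.57% called between nipple and TEB and 2.98% higher in nipple) and 1.35 ± 0.31 (adjusted p = 0.0196, 1.14% called between duct and TEB and 1.05% higher in duct). None of the 4 genes tested in ER- cells was called between nipple and duct (edgeR, 1.63% called), where 2 of them, Acta2 and Tagln, had an unadjusted p under the threshold, with log2 differences of -1.65 and -2.69, and DESeq2 called 0 of the 4. The basal marker sum of the ER- sums was 1773 to 3473 CPM in nipple, 230.1 to 717 CPM in duct and 48.2 to 176 CPM in TEB, and the 7 fibroblast markers summed to 906 to 1527 CPM in nipple, 128 to 344 CPM in duct and 119 to 289 CPM in TEB. In ER+ sums the fibroblast markers were at 898 to 2220 CPM, 208 to 598 CPM and 168 to 370.1 CPM. The part of these markers in the differences was not tested. Whether Tpm1 differed between classes in its response to location was not tested.

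The fibroblast-like class, the stromal one, joined 3 clusters that lay unequally over the locations: a cluster led by Penk and Mmp3 held 115 nipple, 29 duct and 16 TEB cells, one led by Pi16 held 1, 3 and 64, and one led by F2r and Slit2 held 0, 6 and 18. Nipple and TEB values thus come mostly from different clusters. In this class 6 genes could be tested and none was called in any pair (edgeR, 0.2%, 1.54% and 0.271% of all genes called between nipple and duct, nipple and TEB, and duct and TEB). By the unadjusted p of edgeR alone, 2 values lay under the threshold, Mylk for nipple minus duct (log2 difference -2.55 ± 1.20) and Acta2 for nipple minus TEB (-3.04 ± 1.13), and DESeq2 called Acta2 between nipple and TEB. Acta2 was at 39.4 to 59.2 CPM in nipple (n = 4), 126 to 333 CPM in duct (n = 4) and 23.5 to 1878 CPM in TEB (n = 5). The wide TEB range came from T42, in which all 6 fibroblast-like cells held Acta2, with 276 of its 745 UMIs in 1 cell; the other 4 TEB fragments were at 23.5 to 326 CPM. Mural markers in these sums were at 65.1 to 146 CPM in nipple, 5.17 to 31.5 CPM in duct and 19.2 to 88.6 CPM in TEB, with Rgs5 and Higd1b at 0 in duct and TEB.

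The other genes of the pathway were read from 5 lists in basal-like cells. Of 26 further genes of the contractile apparatus 20 were tested: 11 were higher in duct and 1 in TEB, 9 were higher in nipple and 2 in TEB, and 6 were higher in duct and 0 in nipple, beside 10.7%, 19.6% and 6.52% of all genes called in these 3 pairs. The muscle alpha-actinin partner Pdlim3 was at 175 CPM in duct, 173 CPM in nipple and 28.5 CPM in TEB, a difference of 2.70 ± 0.34 for duct minus TEB (adjusted p = 2.07e-07) and 2.70 ± 0.36 for nipple minus TEB (adjusted p = 5.10e-07). Actn1, an actin cross-linker, exceeded TEB in duct by 2.39 ± 0.25 (352 against 78.1 CPM) and Lmod1, a filament nucleator of smooth muscle, exceeded TEB in nipple by 2.74 ± 0.44 (321 against 52.9 CPM). The calponins Cnn2 and Cnn3 did not follow Cnn1: nipple was lower than duct, by -0.91 ± 0.19 and -0.80 ± 0.16, and lower than TEB, by -0.77 ± 0.19 and -0.87 ± 0.16, all called. The median log2 difference over the list was 0.62 for duct minus TEB, 0.37 for nipple minus TEB and -0.16 for nipple minus duct.

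Among 14 tested genes of light chain phosphorylation, 5 were higher in duct and 3 in nipple than in TEB, none lower, and none was called between nipple and duct, where 2 had an unadjusted p of edgeR under the threshold (medians 0.52, 0.50 and 0.01). Over all genes 10.7% were called between duct and TEB and 19.6% between nipple and TEB, and the 3 of 14 are near the latter share. Ppp1r14a, an inhibitor of myosin phosphatase, was at 57.0 CPM in duct and 7.05 CPM in TEB (log2 difference 3.05 ± 0.78, adjusted p = 0.00698), and Prkca, a kinase that acts on that inhibitor, rose by 1.28 ± 0.40 in duct (adjusted p = 0.0334) and 1.28 ± 0.44 in nipple (adjusted p = 0.0354). The phosphatase subunit Ppp1cb was higher in nipple than in TEB by 0.76 ± 0.26 (adjusted p = 0.0377).

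Downstream of the receptor, 13 genes of oxytocin signalling and calcium release were tested, of which 2 were higher in duct and 1 in TEB, and for nipple against TEB 1 was higher in each (medians 0.22 and -0.52), beside 10.7% and 19.6% of all genes called. Between nipple and duct edgeR called 0 of the 13, with 1 unadjusted p under the threshold (median -0.40). Atp2a2, the calcium pump of the endoplasmic reticulum, was at 320.0 CPM in nipple, 266 CPM in duct and 123 CPM in TEB, a rise of 1.57 ± 0.23 in nipple (adjusted p = 3.16e-06) and 1.28 ± 0.21 in duct (adjusted p = 3.70e-05). Atp2b1, the pump of the plasma membrane, was lower in nipple than in TEB, by -1.23 ± 0.22 (153 against 409.8 CPM, adjusted p = 6.42e-05). Itpr3, a calcium release channel, was higher in duct than in TEB by 2.29 ± 0.67 (49.9 against 10.1 CPM, adjusted p = 0.0212).

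Serum response factor, Srf, is the transcription factor that drives many smooth muscle genes with myocardin family cofactors. Of 6 genes of that list tested, 1 was higher in duct and 2 in nipple than in TEB, beside 6.73% and 9.53% of all genes, and none was called by edgeR between nipple and duct, where 0 had an unadjusted p under the threshold. Srf was at 64.1 CPM in nipple and 19.3 CPM in TEB (log2 difference 1.88 ± 0.67, adjusted p = 0.0420), and its cofactor Fhl2 was higher in nipple by 1.04 ± 0.23 (adjusted p = 0.00111) and in duct by 1.01 ± 0.21 (adjusted p = 0.000809). Of 11 other receptors that act on contraction, 1 was tested in basal-like cells and not called by edgeR, with its unadjusted p under the threshold between duct and TEB only. In ER+ cells 2 of these receptors were tested. Of these, 2 were higher in nipple and 1 in duct than in TEB, and 1 in nipple than in duct. Beside them 5.52%, 1.61% and 1.96% of all genes were called in these pairs. Among the 2, the angiotensin receptor Agtr1a, named here after its values were seen, was higher in nipple than in TEB by 2.10 ± 0.57 (edgeR, adjusted p = 0.0211). Fibroblast markers in the same sums were at 898 to 2220 CPM in nipple and 168 to 370 CPM in TEB, and their part was not tested.

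Srf binds a CArG box, CC and GG around 6 bases that are A or T. RefSeq promoter windows of GRCm38.p6, from 250 bases before to 50 after the gene start, were matched for 7 of the 10 genes (none for Actg2, Myh11 and Tagln) and searched on both strands, on which the box reads alike. In all, 32851 windows were searched, which left out those of 1 chromosome that holds none of the 7 genes. An exact box lay in 1.63% of the windows searched and in that of Myl9. A box with 1 G or C among its 6 central bases lay in 8.50% of the windows searched and in those of Acta2 and Myl9. They are shown with the box in capitals and 10 bases on each side, as the stretches that held one among the 7 genes searched. The windows of Mylk, Cnn1, Tpm1, Tpm2 and Oxtr held no box of either kind. That of Mylk, 34784700 to 34784999, lay inside the gene boundaries given above. Sequence outside the windows was not searched, so no box in a window says nothing of the rest of a gene. A match is a description and not a site.
Myl9 exact box at -161: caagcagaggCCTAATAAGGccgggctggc
Myl9 box with 1 G at -99: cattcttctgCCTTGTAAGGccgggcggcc
Acta2 box with 1 C at -84: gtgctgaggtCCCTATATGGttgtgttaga
Acta2 box with 1 G at -34: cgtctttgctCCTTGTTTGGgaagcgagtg
On the plus strand of chromosome 2 the Myl9 stretches lie at chr2:156775293-156775322 and chr2:156775355-156775384, and on the minus strand of chromosome 19 the Acta2 stretches lie at chr19:34255438-34255467 and chr19:34255388-34255417. The position beside each name is that of the first base of the box from the RefSeq start of that window, which differs from the gene boundary given above for both genes.

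Over the 16 basal-like sums, the log2 levels of the 10 genes correlated with each other at Pearson r between 0.488 (Actg2 and Oxtr) and 0.986 (Acta2 and Tagln), a description over fragments that share location and class. Leaving the 10 genes out of the ranking, among the genes whose levels were most like Acta2 were Myl6 (r = 0.924), a myosin essential light chain, Itpr3 (0.912), Rbm38 (0.903) and Tagln2 (0.901). Most like Actg2 were Tmsb4x (0.935), which binds actin monomers, Htra1 (0.896), Ralb (0.866), Lamc1 (0.856) and Igfbp2 (0.844). Most like Oxtr were Flnc (0.984), a filamin of muscle, Krt14 (0.949), Fxyd6 (0.931), Bcar1 (0.930) and Postn (0.929).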

How the data were processed

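Single cells of 16 fragments were sequenced by 3' SMART-seq. Per the labels and the study's methods, the authors trimmed reads (Trim Galore, FastQC), aligned them to mm10 (STAR), assigned them to genes (featureCounts) and deposited UMI counts (UMI-tools); versions, and whether counting used strand, are not given in the sources used here. The deposited count table held 17721 genes, 67 spike-ins and 1419 cells.

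Cells with at most 5% spike-in UMIs, 5000 to 120000 UMIs and 200 to 6000 genes were kept. They were clustered in Seurat 5.3.0 (R 4.3.3; 2000 variable genes, 14 components, resolution 0.5, with spike-in share, cell cycle and gene number regressed out), leaving out the 10 genes and the pathway lists, and clusters were named from marker lists. No doublet caller was run on these singly sorted cells. The naming rule was adapted, and 6 cells with at least 10 UMIs of Schwann cell markers and under 10 of Krt5, Krt14 and Krt17 were set aside, after the data were seen. For each class, the counts of a fragment's cells (5 or more) were added up, filtered with filterByExpr, scaled by TMM and tested with edgeR 4.0.16 (quasi-likelihood, Benjamini-Hochberg over all genes tested, threshold 0.05), with the 3 locations in 1 fit, after a test on simulated data. The actin ratio, with 1 CPM added to each level, was compared with a 2-sided exact permutation test (scipy 1.17.1). Levels are unscaled CPM, and class levels were compared without a test. Intervals and floors (3 counts) cover counting error only.

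The 10 genes and the lists were chosen with earlier results of these data known. Of each pathway list, at most 2 called genes a pair of locations were named in basal-like cells, those of largest log2 difference whose higher location reached 20 CPM, and for Acta2, Actg2 and Oxtr the 5 genes of highest correlation; some genes that these rules name are not reported here. Alternatives covered clustering, cell and count filters, DESeq2 1.42.0, scaling, thinning to 5000 UMIs, a replicate block and each fragment left out. Protein sequences were not used here.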

Additional observations from a re-analysis of the deposited data

How the results depend on the processing

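Between duct and TEB, the number of the 10 genes called in basal-like cells was 10 with any fragment left out and 8 to 10 under the other alternatives, and no direction changed. Between nipple and TEB it was 8, ranged from 7 to 9 with a fragment left out, and was 4 without cells holding 10 or more Krt18 UMIs. Those cells were 64 of 96 in nipple, 92 of 115 in duct and 49 of 81 in TEB, and this alternative and the one that kept the Schwann-rich cells were chosen after seeing the data. Between nipple and duct it was 5, ranged from 3 (without N21, N22 or N24) to 7 with a fragment left out, and was 8 with at least 10 cells per sum, 8 with only the locations compared and 9 after thinning.

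In ER+ cells the count between nipple and duct was 1, ranged from 0 to 1 with a fragment left out, and was 0 with at least 10 cells, 2 with only the locations compared and 0 after thinning. Between nipple and TEB it was 1, ranged from 1 to 2, and was 2 with no regression, 2 with no filter on low counts and 0 after thinning. Between duct and TEB it was 3, ranged from 2 to 7, and was 6 with no regression, 5 with classes from marker lists, 5 with DESeq2, 6 with no filter, 5 with the replicate block and 0 after thinning. In ER- cells the count between nipple and TEB was 2, ranged from 1 to 2, and was 1 with classes from marker lists and 0 with at least 10 cells. Between duct and TEB it was 1, ranged from 0 to 2, and was 0 with classes from marker lists, 0 with at least 10 cells, and 2 with each of DESeq2, no filter, only the locations compared and the replicate block. In fibroblast-like cells a count of 0 became 1 with at least 10 cells (nipple against duct, and duct against TEB) and 1 with DESeq2 (nipple against TEB). The cause of these shifts was not tested.

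Some signs turned. Oxtr, nipple minus duct, near 0 in the main setting, ranged from -0.22 to 0.19 with a fragment left out. It was -0.031 with the Schwann-rich cells kept and -1.59 without the Krt18 cells. Actg2, nipple minus TEB, also near 0 in the main setting, ranged from -0.40 to 0.13. Acta2, nipple minus TEB, was not near 0 and was called in the main setting, but was -0.083 without the Krt18 cells. The nipple minus TEB actin ratio was -0.87 after thinning (adjusted exact permutation p = 0.0857) and ranged from -1.03 to -0.59.

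Title numbers are shared by duct and TEB fragments only, and D31 with T31 and D32 with T32 did not deviate together (r = -0.01 each over 7238 genes). Whether fragments of the same number share a mouse cannot be read from this, as no pair known to share one was available. The replicate block, the first digit of that number, was fitted to duct and TEB fragments alone, where it moved the genes called in basal-like cells from 745 to 347 of 5506 and left 10 of the 10 genes called. Over the alternatives other than left-out fragments, genes called numbered 59 to 666 between nipple and duct, 316 to 1752 between nipple and TEB and 90 to 1005 between duct and TEB. Depth limits Oxtr most, with 14 UMIs in TEB basal-like cells.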
